A study of Sus scrofa with 8 samples.

Results

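Translation factors are the proteins that start and drive protein synthesis on the ribosome, and their transcripts were followed here in the whole blood of 8 female Clawn miniature pigs aged 8 to 9 months. The control group of 4 pigs ate standard dry feed, and the SDW group of 4 pigs ate that feed mixed with equal weights of water and of shochu distilled water (SDW), a by-product of making the Japanese spirit shochu. Each pig gave 1 Agilent 1-colour array. The series text places sampling at 12 weeks of feeding. The labels of single pigs instead carry 14, 15, 16 or 17 weeks, with the number rising with the replicate in each diet, and the weeks were not used. The labels call the breed a conventional miniature pig and name no strain, allele or drug beyond this.

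Members were the array probes whose description holds the words translation initiation factor, translation elongation factor or eukaryotic elongation factor and not the word mitochondrial. This found 46 of the 43603 probes. The words use no measured value, but they were chosen with earlier results of these data known. The words matched 47 descriptions, of which 1 was mitochondrial and was left out. The 46 probes stand for 23 described factors. Of them, 17 carry the name of a pig RefSeq transcript and 29 belong to assembled transcript clusters that are named only by their closest protein match, so a factor name of the second kind is the match and not a proven identity. No probe of eIF1, eIF2B, eEF1B or eEF2 met these words.

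Initiation in animal cells begins when eIF2, loaded with GTP and the initiator tRNA, joins the small ribosomal subunit together with eIF3. The eIF4F complex (the cap-binding protein eIF4E, the scaffold eIF4G and the helicase eIF4A) brings that subunit to the capped end of an mRNA, eIF5 and eIF5B finish the assembly at the start codon, and eEF1A then delivers each aminoacyl-tRNA. In blood most of this RNA comes from white cells, platelets and young red cells, which differ in how much protein they make.

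The sequences below carry the findings that follow. The first set are probes against EEF1A1, the gene of the main form of eEF1A, each 60 bases long, written 5′ to 3′ as the files give them and labelled by the first base of the target in the transcript. Capitals mark the 18 bases that the probes starting at 602, 615 and 644 have in common, which is why these are not independent readings.
EEF1A1 361: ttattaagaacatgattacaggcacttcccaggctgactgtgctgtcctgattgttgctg
EEF1A1 602: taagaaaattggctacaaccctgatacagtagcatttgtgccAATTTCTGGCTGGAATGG
EEF1A1 615: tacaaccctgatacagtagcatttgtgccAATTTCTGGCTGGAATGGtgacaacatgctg
EEF1A1 644: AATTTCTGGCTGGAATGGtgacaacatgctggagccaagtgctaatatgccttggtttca
EEF1A1 920: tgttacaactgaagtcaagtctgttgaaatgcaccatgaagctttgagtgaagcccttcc
EEF1A1 1223: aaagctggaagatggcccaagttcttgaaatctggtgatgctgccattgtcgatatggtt

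A search of these letters for the stop codons TAA, TAG and TGA found 1 reading frame, counted along the transcript, that is free of stops in the probes at 361, 602, 615, 644 and 920 alike. The only stop-free frame of the probe at 1223 is a different one. The next set shows the EIF4A1 probes that overlap, with their 23 shared bases in capitals, and then, with no capitals, the probes of EIF4A2 and eIF4G3 on which results below turn.
EIF4A1 574: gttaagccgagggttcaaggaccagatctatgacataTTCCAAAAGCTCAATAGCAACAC
EIF4A1 611: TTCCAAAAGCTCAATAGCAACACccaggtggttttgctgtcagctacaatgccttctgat
EIF4A2 814: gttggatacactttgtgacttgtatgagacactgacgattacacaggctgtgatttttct
eIF4G3 482: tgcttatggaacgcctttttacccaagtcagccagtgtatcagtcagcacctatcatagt

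Of the 46 member probes, 37 were well above background on all 8 arrays and 9 on none, so there was no member that was seen in some pigs only. Among all 43603 probes, 31.3% were well above background on all 8 arrays and 49.3% on none. The 37 measured probes stand for 20 factors. The 9 that stayed near background were both probes of eIF2-gamma, a subunit of eIF2, and single cluster probes matched to EIF4A2, eIF4G3 and eIF5. The rest of the 9 were 2 cluster probes matched to eIF5B and probes matched to the bacterial factors EF-Tu and SelB. All 46 have 1 spot on the array, and none was saturated. A level below is the log2 signal minus the 75th percentile of the same array, so 0 is the brightness that the brightest 25% of the probes exceed, and a difference of 1 is a doubling. Levels of different probes are not compared, because probes differ in how brightly they bind.

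No member differed between the diets after adjustment for all 17352 probes tested. In limma (lmFit and eBayes, two-sided, Benjamini-Hochberg), 0 of 37 member probes and 0 of 17352 probes passed an adjusted p of 0.05, with a smallest adjusted p of 1.00 in both. At an unadjusted p under 0.05, limma picked 1 of 37 member probes (2.70%), which was eIF4E3, beside 251 of all probes (1.45%). Of those 251, 90 were lower (0.519% of all probes) and 161 higher (0.928%). Of the member probes, 14 were higher and 23 lower in SDW pigs. Counted by described factor, with the brightest measured probe of each, 11 were higher and 9 lower. EIF4A1 and the eIF4A isoform 1B match count separately there, although the probes read for them share a transcript cluster. The median difference was -0.07 over the probes, 0.04 over the factors and 0.02 over all probes tested. Member differences were small in size, with a median absolute difference of 0.13 against 0.17 over all probes, and they ran from -0.54 (eIF4E3) to 0.34 (eIF2C3). The member counts and medians include the matches to Argonaute proteins (eIF2C and eIF2C3) and to microbial factors, described below. The limma 95% confidence intervals had a median half-width of 0.61 and reached from -1.11 to 1.37, so changes of that size in single factors could not be told from none with 4 pigs a diet. In whole blood, fewer cells of a type and less RNA per cell cannot be told apart in any of these values.

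**Figure D1:**
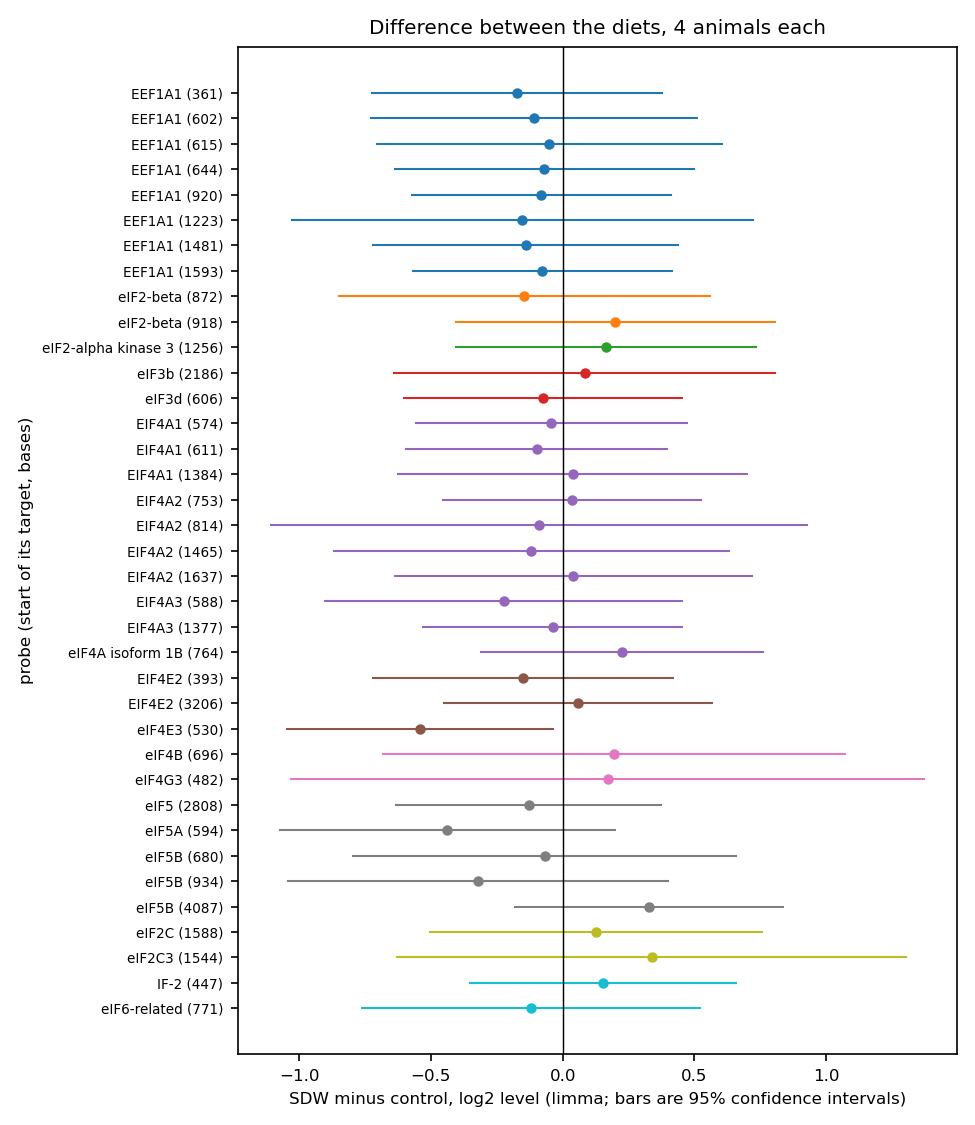
Difference between the diets for the 37 measured probes (horizontal axis, SDW minus control in log2 units; points are limma estimates, bars 95% confidence intervals, colours separate the factor groups). The eIF4E3 interval, around -0.54, is the only one that does not include 0.

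The spread between pigs on the same diet was also below the median of all probes tested for most members. The pooled standard deviation within the diets had a median of 0.36 over the member probes and 0.43 over all probes tested, and 25 of the 37 lay below the latter. It was under 0.25 in 11 member probes (11.7% of all probes were). All 37 member probes were well above background on all 8 arrays, but only 13658 of the 17352 probes tested were. The sets are thus unlike in detection, here and for the sizes of the differences above, and 8 of the 37 are EEF1A1 probes. The steadiest were the cluster probe matched to EIF4A2 that starts at 753 (SD 0.20), EEF1A1 at 1593 (SD 0.21) and EIF4A3 at 1377 (SD 0.21). The least steady were eIF4G3 (SD 0.91), EIF4A2 at 814 (SD 0.75), eIF2C3 (SD 0.71) and eIF4B (SD 0.63).

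The arrays lay on 3 slides, and for several factors the slide set pigs apart more than the diet did. Slide 1 held control 3, SDW 2 and SDW 3, slide 2 held control 2, control 4 and SDW 1, and slide 3, scanned on a second day, held control 1 and SDW 4. Slide took a median of 43.9% of the variance of a member probe and diet 3.22%, against 44.7% and 4.97% over all probes tested. Slide has 3 levels and diet 2, so these shares are not on an equal footing. In 14 of 37 member probes (37.8%), both arrays of slide 3 lay outside the range of the other 6, which 32.7% of all probes did as well. With slide as a fixed block in limma, 0 member probes had an unadjusted p under 0.05 (6.59% of all probes did), and the smallest adjusted p was 0.732 among members and 0.319 among all. The difference between the diets had the same sign on all 3 slides in 11 member probes (29.7%) and in 27.7% of all probes tested.

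**Figure D2:**
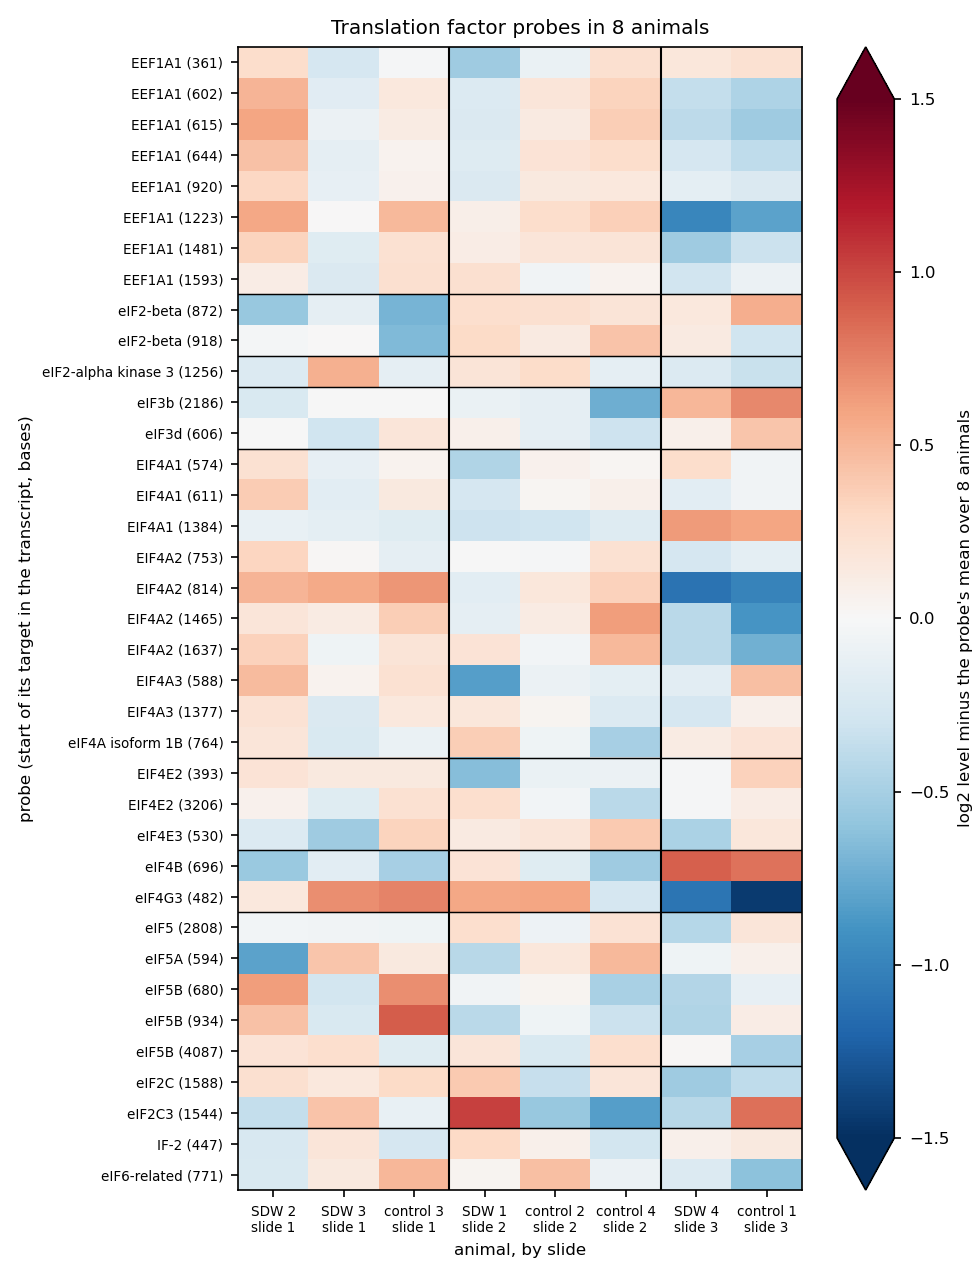
Level of each of the 37 measured probes in the 8 pigs, as log2 level minus the mean of that probe (colour), with pigs ordered by slide and probes by factor group. On slide 3 the probes of EIF4A2, eIF4G3 and EEF1A1 at 1223 are low in both pigs, and eIF4B, eIF3b and EIF4A1 at 1384 are high in both, although these pigs ate different diets.

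The first step of initiation is represented by eIF2 and by a kinase that turns it off. The beta subunit of eIF2 had 2 measured probes from different clusters, matched to a Candida and a Drosophila protein over 5% each. With so little of the protein covered, the name eIF2-beta is uncertain for both. At the probe starting at 872, eIF2-beta read 1.08, 0.78, -0.16 and 0.73 in controls 1 to 4 and 0.79, -0.03, 0.40 and 0.69 in SDW pigs 1 to 4. At 918 it read -0.10, 0.33, -0.47 and 0.62 in the controls and 0.48, 0.17, 0.20 and 0.33 in the SDW pigs. The diets overlap in both, and the probes disagreed in sign, with differences of -0.15 and 0.20. The cluster matched to eIF2-alpha kinase 3, which phosphorylates eIF2 when proteins misfold in the endoplasmic reticulum, read 0.07, 0.68, 0.27 and 0.27 in the controls and 0.60, 0.20, 0.94 and 0.20 in the SDW pigs. These values overlap, and their difference was 0.16 with a limma standard error of 0.25 and an adjusted p of 1.00.

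Of the large eIF3 complex, which holds the small subunit ready for mRNA, 2 subunits were measured and they differed in steadiness. The probe of eIF3d, a subunit that can itself contact the cap of some mRNAs, read 7.97, 7.43, 7.75 and 7.25 in controls 1 to 4 and 7.63, 7.55, 7.26 and 7.64 in SDW pigs 1 to 4. The difference between the diets was -0.08 (SD within diets 0.26), and the slide 3 mean lay 0.33 above the rest. A pair of array probes against a pig ovary cDNA that overlap the eIF3d probe by 44 and 49 bases gave diet differences of -0.04 and -0.03. Their slide 3 means lay 0.46 and 0.37 above the rest, with both slide 3 pigs highest at the first. The probe of eIF3b, a core scaffold of the complex, read 5.26, 4.41, 4.54 and 3.81 in the controls and 4.45, 4.32, 4.55 and 5.05 in the SDW pigs. Its diet difference was 0.08, while both pigs of slide 3 (control 1 and SDW 4) read above all others, by 0.81 on average.

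The helicase eIF4A, which unwinds the start of the mRNA, had 10 measured probes, 4 higher and 6 lower in SDW pigs, with differences from -0.22 to 0.23 and no unadjusted limma p under 0.05. EIF4A1 and EIF4A2 encode near-identical helicases of the eIF4F complex, so cross-binding between them is possible. The EIF4A1 probe at 1384 read 2.61, 1.72, 1.83 and 1.82 in controls 1 to 4 and 1.70, 1.90, 1.87 and 2.65 in SDW pigs 1 to 4. Control 1 and SDW 4 stand well apart from the other 6, which agree closely, and slide accounts for 98.9% of the variance of this probe. The overlapping EIF4A1 probes printed above, at 574 and 611, do not show this split. They belong to a transcript cluster other than that of the probe at 1384. At 574 the levels were 0.82, 0.92, 0.91 and 0.89 in the controls and 0.41, 1.09, 0.74 and 1.13 in the SDW pigs. At 611 they were 0.47, 0.56, 0.67 and 0.60 in the controls and 0.27, 0.91, 0.37 and 0.36 in the SDW pigs. In both, the controls lie close together and the SDW pigs spread to either side of them, and the slide 3 mean was within 0.15 of the rest, although SDW 4 was the highest pig at 574. The differences between the diets at 574, 611 and 1384 were -0.04, -0.10 and 0.04.

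EIF4A2 lay the other way on slide 3 in all 4 of its measured member probes. The probe at 814 read -0.51, 0.66, 1.16 and 0.84 in controls 1 to 4 and 0.34, 1.00, 1.06 and -0.61 in SDW pigs 1 to 4. The probe at 1465 read 1.47, 2.47, 2.72 and 2.99 in the controls and 2.22, 2.53, 2.48 and 1.95 in the SDW pigs. The probe at 1637 read 2.59, 3.26, 3.50 and 3.79 in the controls and 3.51, 3.66, 3.24 and 2.90 in the SDW pigs. In each, control 1 and SDW 4 are the lowest, and slide 3 lay below the other slides by 1.40, 0.86 and 0.75 log2 units. The gap at 814 depended on the background correction and ranged from -1.62 to -0.57 over 5 scalings. The cluster probe matched to EIF4A2 at 753 read 1.37, 1.50, 1.39 and 1.75 in the controls and 1.51, 1.84, 1.53 and 1.27 in the SDW pigs, where the slide 3 gap shrank to -0.26. The probes at 753 and 814 share 1 transcript cluster, and those at 1465 and 1637 share another. The differences between the diets over the 4 probes, in the order 753, 814, 1465 and 1637, were 0.04, -0.09, -0.12 and 0.04. A further EIF4A2 probe outside the rule's words, at 1832, read 3.096, 3.68, 3.80 and 3.88 in the controls and 4.00, 3.91, 3.70 and 3.65 in the SDW pigs. Its difference was 0.20 (limma unadjusted p = 0.427), and its slide 3 gap was -0.46, with both pigs lowest, which held under 3 of 5 scalings. The opposite slide 3 shifts of EIF4A1 at 1384 and EIF4A2 at 814, 1465 and 1637 held their sign, with both pigs outside the others, under all 5 scalings of the scanner signals tried.

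**Figure D3:**
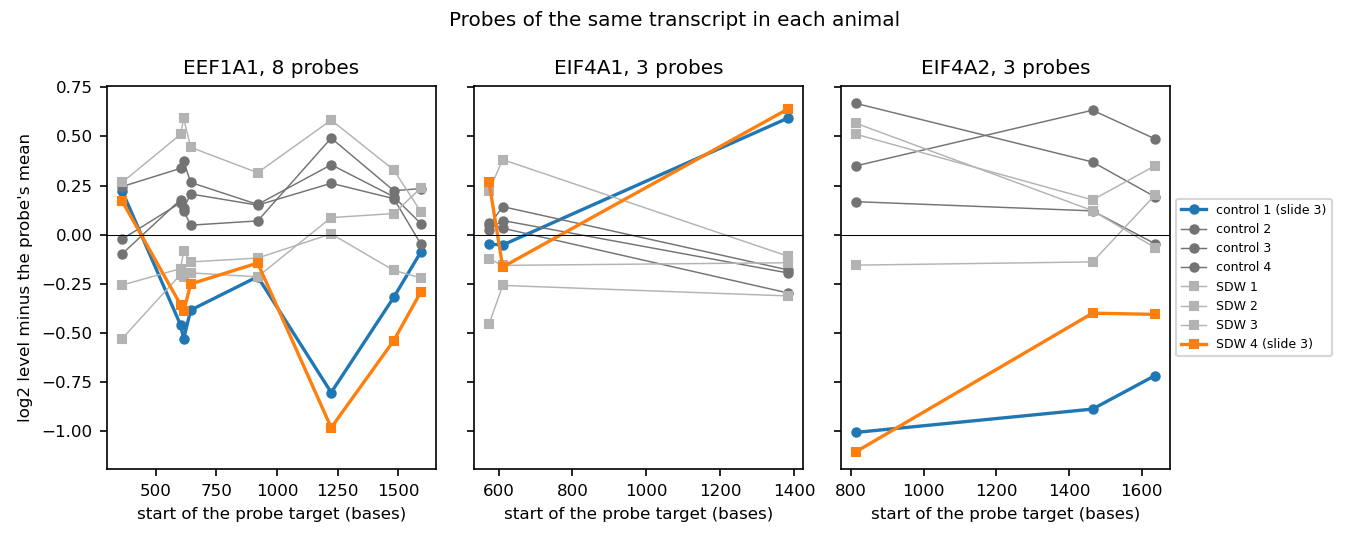
Level of each probe of EEF1A1, EIF4A1 and EIF4A2 (vertical axis, log2 level minus the mean of that probe) against the first base of its target in the transcript (horizontal axis), with 1 line per pig. The pigs of slide 3 (coloured) are lowest at all 3 EIF4A2 probes shown and at EEF1A1 1223, highest at EIF4A1 1384, and do not stand apart together at EIF4A1 574 and 611.

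The remaining eIF4A members did not set the slide 3 pigs apart. EIF4A3, the helicase of the exon junction complex that marks spliced mRNA, read 5.77, 5.73, 5.85 and 5.49 in controls 1 to 4 and 5.86, 5.92, 5.48 and 5.44 in SDW pigs 1 to 4 at 1377. That is a difference of -0.04 with an SD of 0.21, and its second probe, at 588, gave -0.22 with an SD of 0.43. The cluster matched to eIF4A isoform 1B read 6.23, 5.96, 5.93 and 5.53 in the controls and 6.40, 6.21, 5.80 and 6.15 in the SDW pigs. The diets overlap, and the difference was 0.23 (limma standard error 0.24, adjusted p = 1.00). The files place this probe in the same transcript cluster as the EIF4A1 probe at 1384, yet it did not share that probe's shift on slide 3.

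The cap-binding proteins held the only member in which the diets did not overlap. eIF4E3, an unusual member of the eIF4E family that also binds the cap, read 1.02, 1.04, 1.18 and 1.25 in controls 1 to 4 and 0.99, 0.64, 0.32 and 0.38 in SDW pigs 1 to 4. Every SDW pig lay below every control, although SDW 1 missed the lowest control only narrowly, and the SDW pigs were spread more widely (SD 0.30 against 0.11, n = 4 each). The mean was 0.54 log2 units lower in SDW pigs (limma standard error 0.23, unadjusted p = 0.0383, adjusted p = 1.00), a ratio of 0.688 with a 95% interval from 0.484 to 0.976. The exact permutation test, two-sided over 70 assignments, gave p = 0.0286, the smallest it can give here. The diets did not overlap, in either direction, in 0.985% of all probes tested and in 1 of 37 members (2.70%). In 0.386% of all probes tested, every SDW pig lay below every control. Within slides the differences were -0.70, -0.16 and -0.64 on slides 1, 2 and 3, and with slide as a block limma gave -0.49 (unadjusted p = 0.0531). Leaving out 1 pig at a time, it lay between -0.67 and -0.45, with a limma unadjusted p from 0.0158 to 0.102. With normexp background correction it was smaller, at -0.28 (unadjusted p = 0.0564) with the 75th percentile and -0.32 (unadjusted p = 0.0184) with quantile scaling.

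A further probe on the array, described only as a porcine testis sequence, shares 35 of its bases with the eIF4E3 probe. It read 0.92, 0.87, 0.95 and 0.97 in controls 1 to 4 and 0.72, 0.52, 0.23 and 0.08 in SDW pigs 1 to 4. Here too no SDW pig reached a control, and the difference was -0.54 (limma standard error 0.22, unadjusted p = 0.0348, adjusted p = 1.00). The probes share bases and pigs, so this is no independent evidence. The eIF4E3 cluster is a match over 71% of the protein. Blood cell markers were read beside this difference, and none passed an adjusted p of 0.05 in limma. All 5 neutrophil markers measured (of 10 listed) were lower in SDW pigs, with a median difference of -0.76 and a mean level, relative to all pigs, from -0.31 to 1.11 in controls and from -0.74 to 0.23 in SDW pigs. All 3 eosinophil and basophil markers measured (of 6) were higher, from -1.36 to 0.08 in controls and from -0.12 to 0.94 in SDW pigs. Both NK and cytotoxic markers measured (of 7) were lower, with a median of -0.64 and a mean level from -0.20 to 0.81 in controls and from -0.76 to 0.36 in SDW pigs. The 1 B cell marker (of 5) differed by -0.51, and the medians of 4 T cell (of 9), 3 monocyte (of 5) and 4 platelet markers (of 6) were -0.31, 0.10 and 0.11. Only 2 markers had an unadjusted limma p under 0.05. CCR2, a chemokine receptor of monocytes, was 0.88 higher (limma p = 0.00474, exact permutation p = 0.0286), with every SDW pig above every control. The other monocyte markers did not follow it, with CD14 at -0.73 and CD163 at 0.10. GNLY, a cytotoxic granule protein, differed by -0.71 (limma unadjusted p = 0.0391, adjusted p = 1.00). The part of these cell types in the eIF4E3 difference was not tested.

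EIF4E2, which binds the cap without recruiting the scaffold and so holds mRNAs silent, had 2 probes of opposite sign. At 3206 it read 2.66, 2.50, 2.77 and 2.14 in controls 1 to 4 and 2.80, 2.61, 2.36 and 2.53 in SDW pigs 1 to 4, a difference of 0.06. At 393 it read 0.12, -0.32, -0.07 and -0.30 in the controls and -0.86, -0.01, -0.07 and -0.23 in the SDW pigs, a difference of -0.15 that rests on SDW 1. EIF4E itself, the main cap-binding protein, has a probe whose description does not use the words of the rule; its difference was 0.02.

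**Figure D4:**
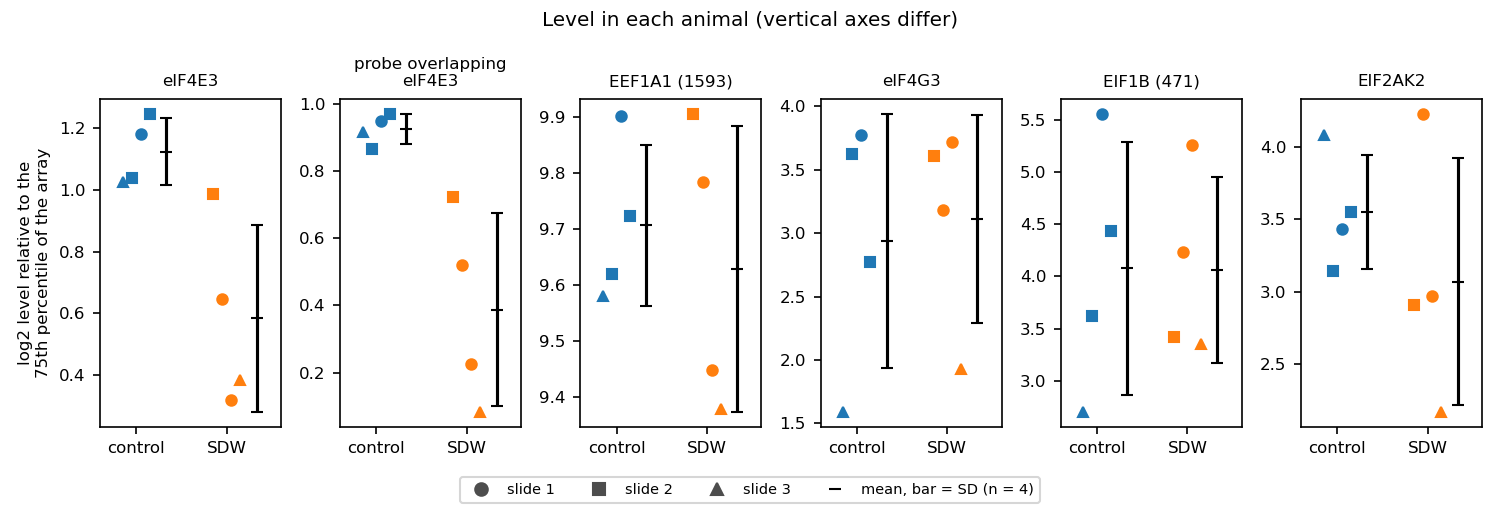
Level in each pig (vertical axes differ, log2 relative to the 75th percentile of the array) for 6 probes, with symbols for the slide and bars for mean and SD of the 4 pigs on each diet. For eIF4E3 and the probe that overlaps it, no SDW pig reaches the controls, while for eIF4G3 the low values are the 2 pigs of slide 3.

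The scaffold and the helper of the helicase were among the 4 least steady members. eIF4G3, a form of the scaffold that bridges the cap complex and eIF3, read 1.59, 3.62, 3.77 and 2.77 in controls 1 to 4 and 3.61, 3.18, 3.72 and 1.93 in SDW pigs 1 to 4. Control 1 and SDW 4 were the lowest of each diet, the highest pig was 4.53-fold above the lowest, and 90.4% of all probes tested had a smaller SD. The difference between the diets was 0.17 with an interval from -1.03 to 1.37. The cluster matched to eIF4B, which stimulates the helicase, covers only 5% of a rat protein, so its name is uncertain. It read 1.75, 0.75, 0.44 and 0.39 in the controls and 1.13, 0.37, 0.77 and 1.83 in the SDW pigs. Its high pigs are those of slide 3, 1.15 log2 units above the others, and the diet difference was 0.20. eIF4G3 and eIF4B thus set the same pigs apart, in opposite directions. Slide took 85.2% of the variance of eIF4G3 and 84.7% of that of eIF4B.

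Of the late initiation factors, 4 of 5 measured probes were lower in SDW pigs and 1 higher, none with an unadjusted limma p under 0.05 (the smallest was 0.156). eIF5, which triggers GTP hydrolysis by eIF2 at the start codon, read 4.78, 4.53, 4.53 and 4.82 in controls 1 to 4 and 4.86, 4.56, 4.55 and 4.18 in SDW pigs 1 to 4. Only SDW 4 departs from a narrow band, and the difference was -0.13. The cluster matched to eIF5A, the factor that relieves ribosomes stalled on difficult peptides, covers 25% of a Schistosoma protein. It read 0.33, 0.43, 0.40 and 0.74 in the controls and -0.16, -0.55, 0.67 and 0.19 in the SDW pigs. SDW 1, SDW 2 and SDW 4 lay below all controls and SDW 3 lay among them, for a difference of -0.44 (limma standard error 0.29, unadjusted p = 0.156, adjusted p = 1.00). That difference was below 0 on all 3 slides, at -0.34, -0.75 and -0.14. It was -0.26 and -0.23 with normexp, and -0.24 without SDW 2.

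eIF5B, the GTPase that joins the ribosomal subunits, had 3 measured probes from different clusters that disagreed in sign. At 680 it read 4.27, 4.43, 5.08 and 3.90 in controls 1 to 4 and 4.33, 5.02, 4.11 and 3.95 in SDW pigs 1 to 4, a difference of -0.07. At 934 it read 0.58, 0.41, 1.39 and 0.16 in the controls and 0.07, 0.92, 0.25 and 0.02 in the SDW pigs, a difference of -0.32. At both, control 3 and SDW 2, on slide 1, were the highest pigs, but SDW 3, on the same slide, read only 4.11 and 0.25. At 4087 it read -0.63, -0.35, -0.30 and 0.13 in the controls and 0.06, 0.08, 0.13 and -0.10 in the SDW pigs, a difference of 0.33 (limma unadjusted p = 0.181) that was above 0 on all 3 slides.

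Elongation is represented by EEF1A1 alone, with 8 measured probes, among the most abundant messages of most cells. The probe nearest the end of the transcript, at 1593, read 9.58, 9.62, 9.90 and 9.72 in controls 1 to 4 and 9.91, 9.78, 9.45 and 9.38 in SDW pigs 1 to 4. The diets overlap fully, and the difference was -0.08 (limma standard error 0.22, adjusted p = 1.00), a ratio of 0.948 with a 95% interval from 0.674 to 1.33. All 8 EEF1A1 probes were lower in SDW pigs, but by only 0.05 to 0.17 log2 units. They did so under each of the scalings tried. Without SDW 4, however, 3 were lower and 5 higher, so the common sign rests on that pig. Without control 4, 2 were higher, and without SDW 1, 1 was. Probes of a gene are not replicates, and 3 of them overlap.

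The EEF1A1 probes did not give the same picture of the pigs. The probe at 1223 read 6.92, 7.98, 8.21 and 8.07 in controls 1 to 4 and 7.80, 8.30, 7.72 and 6.74 in SDW pigs 1 to 4. Slide 3 lay 1.19 log2 units below the other slides there, and the highest pig was 2.96-fold above the lowest. The probe at 920 read 5.27, 5.64, 5.56 and 5.64 in the controls and 5.27, 5.80, 5.37 and 5.34 in the SDW pigs, a slide 3 gap of only -0.24 and a range of 1.44-fold. At 361 the order changed, with 3.07, 2.75, 2.82 and 3.09 in the controls and 2.32, 3.11, 2.59 and 3.02 in the SDW pigs. Both slide 3 pigs were there above the mean, and SDW 1 was lowest. SDW 2 was the highest pig at 7 of the 8 probes. The overlapping probes at 602, 615 and 644 gave slide 3 gaps of -0.54, -0.61 and -0.42, and the probe at 1481 gave -0.57. EEF1A1 has near-identical processed copies in mammalian genomes and a close paralogue, so which copies a probe reads is uncertain.

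A second elongation gene, EEF1G, lies outside the rule's words but carries its symbol in the files. It encodes the gamma subunit of the complex that recharges eEF1A with GTP. Its 4 probes differed between the diets by -0.32 to 0.03. At 1356 it read 6.29, 5.20, 4.85 and 5.24 in controls 1 to 4 and 4.60, 4.69, 5.34 and 5.78 in SDW pigs 1 to 4, so that both pigs of slide 3 were the highest, by 1.05 log2 units. In 3 of its 4 probes both slide 3 pigs were highest, opposite to EEF1A1 at 1223, but at 2 of these 3 that held under 1 of 5 scalings only.

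Members that share the name but not the role are described apart here, but they count among the 37 measured probes and 20 factors above. The clusters matched to eIF2C and eIF2C3 carry an old name of Argonaute proteins, which act in small RNA silencing. eIF2C3 read 2.40, 1.00, 1.47 and 0.75 in controls 1 to 4 and 2.59, 1.22, 2.01 and 1.15 in SDW pigs 1 to 4. Control 1 and SDW 1, which share a replicate number but no slide, were the high pigs, and the range was 3.59-fold. Its difference of 0.34 was the largest upward difference of all members (interval from -0.63 to 1.30, limma adjusted p = 1.00), and the sign was not shared by slide 3, where it was -1.25. Leaving out 1 pig at a time, it ranged from 0.0532 (without SDW 1) to 0.67 (without control 1), so its size and rank rest on single pigs. eIF2C differed by 0.13. The cluster matched to the bacterial initiation factor IF-2 over 3% of that protein read 2.50, 2.42, 2.09 and 2.08 in the controls and 2.65, 2.10, 2.53 and 2.42 in the SDW pigs, a difference of 0.15. The cluster matched to an archaeal eIF6-related protein over 7% read 3.17, 4.24, 4.29 and 3.70 in the controls and 3.84, 3.57, 3.94 and 3.58 in the SDW pigs, a difference of -0.12. With so little of the protein covered, neither name can be taken as the gene, and their values overlap between the diets.

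Searching gene symbols added 11 probes of translation factors beyond the rule's words, of which 9 were measured. EIF1B, a relative of the start-codon selector eIF1, varied more between pigs than any member. Its probe at 471 read 2.70, 3.62, 5.56 and 4.43 in controls 1 to 4 and 3.42, 4.23, 5.26 and 3.35 in SDW pigs 1 to 4, a 7.24-fold range. The probe at 496, which shares 35 bases with it, gave an 8.25-fold range. The SDs of 1.06 and 1.12 exceed those of 94.3% and 95.2% of the probes tested, and the diet differences were -0.02 and 0.06. The pigs of slide 3 were the lowest, by 1.39 and 1.55, but both were lowest under only 3 of 5 scalings at 471 and 4 of 5 at 496. EIF2AK2, the interferon-induced kinase of eIF2 that senses double-stranded RNA, read 4.08, 3.15, 3.43 and 3.55 in the controls and 2.91, 4.23, 2.97 and 2.17 in the SDW pigs. SDW 2 was the highest pig and the other SDW pigs the lowest, for a difference of -0.48 (limma unadjusted p = 0.268, adjusted p = 1.00).

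Other genes that control or feed translation were taken from a list of 62 genes, of which 15 were on the array under a name found here and 8 were measured. None passed an adjusted p of 0.05 in limma or an unadjusted p of 0.05, with 4 higher and 4 lower in SDW pigs and a median difference of -0.04. The differences ran from -0.34 for RPS6KB1, the kinase of ribosomal protein S6, to 0.39 for AARS, the alanyl-tRNA synthetase. RPS6 itself differed by -0.19, and DENR, which acts in recycling and reinitiation, by -0.19. The other synthetases measured were EPRS (0.10), NARS (0.08), RARS (-0.16) and TARS (0.20).

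Blood cell markers were read beside the slide 3 values. On slide 3 the 5 neutrophil markers had a median 0.72 log2 units above the other slides (4 of 5 higher), and all 4 platelet markers measured (of 6) were lower, with a median of -0.70. All 3 eosinophil and basophil markers were lower, with a median of -1.12. The median for 4 T cell markers (of 9) was -0.26, from -1.05 for CD3G to 1.32 for CD3E. It was -0.59 for the 2 NK and cytotoxic markers, which went opposite ways (GNLY 0.31, KLRK1 -1.48). The 3 monocyte markers also disagreed, with a median of -0.37 (CCR2 -0.37, CD163 -0.41, CD14 1.33). The B cell marker lay 0.56 above the other slides. Of 11 red cell markers listed, 0 were found on the array under the names searched, so young red cells were not followed. The part of cell makeup, and of the scan day, in the slide 3 values of EIF4A2, eIF4G3, eIF4B and EEF1A1 was not tested.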

How the data were processed

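Blood was stored in PAXgene tubes, and 0.5 µg of its RNA was amplified linearly into Cy3 cRNA, per the labels' protocols. The deposited scanner files hold spot intensity on a linear scale from Agilent Feature Extraction (10.1.1.1 per the file headers, 9.5.3.1 per the submitters' processing notes), background-subtracted and detrended within the array but not normalized between arrays. Replicate names follow these files, since 7 of 8 columns of the authors' value table of intensities matched another replicate of the same diet. Control and outlier spots were left out, log2 was taken, and the 75th percentile of each array was subtracted. Probes well above background on at least 4 of 8 arrays (17352 of 43603) were tested in R 4.3.3 with limma 3.58.1, checked on simulated data, with no covariate. On an array 35.2% to 43.5% of probes were well above background, and 4 arrays a diet limit the precision.

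A factor was read from its brightest measured probe. Values in every pig were given for the brightest factor of each group, the 5 of smallest p (up to 3 in each direction), any with no overlap, the 4 largest and 3 smallest SDs and factors whose probes disagreed in sign; eIF3b, single probes of EEF1A1 and EIF4A2, EEF1G, EIF1B and EIF2AK2 were added after their values were seen. Members and lists were chosen with earlier results of these data known, and pathway genes of clusters were matched by description after the files were seen. P-values measure the spread between pigs. The sequence of the eIF4E3 probe is not reported here. No genome was used, so positions are those within transcripts.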

Additional observations from a re-analysis of the deposited data

Results flagged for a closer look

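In a test for a pig far from the other 3 on its diet (Dixon's gap test at its 95% critical value), 36 groups were examined for the 18 factors named by rule and 1 stood out: EIF4A1 at 1384 in control 1, with a level of 2.61 against 1.72, 1.83 and 1.82 in the other controls. Chance flags about 1 in 20 groups. SDW 4, on the same slide, read 2.65.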

How the results depend on the processing

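Across other background corrections, scalings, filters, blocks and left-out pigs, 0 member probes passed an adjusted p of 0.05. The count at an unadjusted limma p under 0.05 fell from 1 to 0 with normexp and the 75th percentile, median scaling and no filter. It did so too with slide as a fixed block and the replicate block (0 to 1 leaving out pigs). Same-numbered pigs did not regularly deviate together (r from -0.38 to 0.33), so the numbers were not taken as pairs. The highest r, 0.33, was that of replicate 3, whose pigs share slide 1. The eIF4E3 difference ran from -0.67 to -0.28 and kept its sign in every setting. Without slide 3, 1 probe of all tested was called (adjusted p 2.78e-05 in limma), not a member. Leaving out the filter moved the median of all probes to -0.16.

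Small differences changed sign. EIF4A2 went to -0.0412 (normexp and quantile), -0.00466 (quantile), -0.00861 (value table) and -0.0493 (without slide 3); EIF4A1 to -0.00986 (normexp and quantile); eIF3d to 0.0169 (value table) and 0.0104 (without slide 3); eIF2-beta to 0.0321 (slide block); eIF4G3 to -0.0715 (array weights). Without slide 3, EIF4A3 was 0.0613, eIF5 0.0284 and eIF5B 0.0142. From other probes, EIF4A1 was -0.0429 and -0.10, EIF4A2 -0.0903 and -0.12, EIF4E2 -0.15, eIF2-beta 0.20 and eIF5B 0.33. Leaving out 1 pig at a time, the ranges were -0.17 to 0.00594 for EEF1A1, -0.17 to 0.24 for EIF4A1, -0.19 to 0.21 for EIF4A2, -0.12 to 0.0413 for EIF4A3, -0.0702 to 0.14 for EIF4E2, -0.40 to 0.0190 for eIF2-beta, -0.19 to 0.049 for eIF3d, -0.0726 to 0.50 for eIF4B, -0.28 to 0.56 for eIF4G3, -0.29 to 0.15 for eIF5B and -0.35 to 0.0267 for eIF6-related. The cause was not tested. Signal near background limits the 9 dim members, which have no difference.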
